A study of Mus musculus with 9 samples.

Results

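The complement system of the hippocampus was described from 31 genes, chosen by name as the components, receptors and regulators of the cascade and matched by Ensembl identifier to GENCODE symbols on GRCm38, out of 47643 genes in the count matrix. The study asked how the hippocampal transcriptome of lupus-prone mice differs from that of control mice, and its series adds lupus-prone mice given mesenchymal stem cells. RNA was measured by poly-A RNA-seq of whole hippocampus in 9 libraries, 3 to a group, all from mice 6 weeks old. The control group, MRL/mpj, is called wild type and untreated in the labels. The MRL/lpr group has the MRL-lpr genotype and is called untreated in the labels, while the series title names PBS. The MRL/lpr+MSC group has the same genotype and was treated with mesenchymal stem cells, with no dose, route or day given. MRL/lpr mice carry the Fas lpr insertion in the MRL/MpJ background, which leads to massive expansion of lymphocytes and to autoantibodies. The labels give C57BL/6 as the strain of all 9 samples, whereas the series title and the study name the MRL strains. The labels do not say whether each library came from 1 animal or from a pool. The study's legend to its heat maps of MRL/mpj and MRL/lpr RNA-seq gives each column as 1 mouse. The p-values measure only the spread between these libraries.

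Complement is a chain of serum proteases that marks targets for removal. The classical pathway starts when C1q, carrying the proteases C1r and C1s, binds a surface, and the proteases then cut C4 and C2. The lectin pathway reaches the same step through the MASP proteases, the alternative pathway amplifies C3 cleavage with factors B and D and properdin, and the terminal components build a pore. In brain, C1q comes mainly from microglia, and C1q and C3 fragments on synapses are known to be recognised by microglial receptors such as complement receptor 3, whose alpha chain is Itgam.

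Library identity and tissue content were examined before the comparisons. The libraries held between 19475804 and 26912031 counts, and 3 counts, the upper limit that a count of 0 allows, corresponded to 0.111 to 0.154 counts per 1000000. Levels are given below as CPM, counts per 1000000 of the TMM-scaled library. Among the 1999 genes read from the study's own FPKM table, 100% of the values in each of its 3 MRL/lpr columns were proportional, within 1%, to the counts of a library that GEO labels MRL/lpr+MSC. Its MRL/mpj columns matched the MRL/mpj libraries. The GEO labels are kept here, so each lupus group is set against MRL/mpj in turn, and a direction drawn from the MRL/lpr or MRL/lpr+MSC label rests on a label that the study's own table goes against. Fas counts did not separate the groups: the CPM values were 1.999, 1.85 and 1.63 in MRL/mpj, 2.28, 1.34 and 1.78 in MRL/lpr, and 0.986, 1.12 and 1.81 in MRL/lpr+MSC. Counts over the whole gene do not show the lpr insertion itself, and the genotype of the libraries was not checked in another way.

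Transcripts of other tissues were present in some libraries. The 8 choroid plexus markers, led by Ttr, summed to 9743 CPM in MRL/lpr replicate 2 and 4899 CPM in MRL/lpr+MSC replicate 2, against 100.5 to 1086 CPM in the other libraries. The 10 hepatocyte markers, a list added after the complement values had been seen, summed to 398 CPM in MRL/mpj replicate 3, 125 in MRL/lpr replicate 1, 60.9 in MRL/lpr+MSC replicate 3 and 45.3 in MRL/lpr replicate 3. In the remaining 5 libraries they summed to 0.882 to 13.4 CPM. Alb alone reached 234 CPM in MRL/mpj replicate 3 and 0 CPM in MRL/lpr+MSC replicate 2. The 8 hippocampal neuron markers summed to 6025 to 7063 CPM in MRL/mpj, 4037 to 5358 CPM in MRL/lpr and 4516 to 7021 CPM in MRL/lpr+MSC. Of the 8, 4 were lower in every MRL/lpr library than in every MRL/mpj library, beside 18.5% of all genes tested, and 0 were called. In bulk tissue, fewer cells of a type and less RNA per cell cannot be told apart.

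The levels of complement transcripts spanned a wide range. In FPKM, the authors' unit of fragments per kilobase and sequencing depth, which allows genes to be compared, Clu stood highest at 250 ± 20.9 FPKM (SD over the 9 libraries). Clu encodes clusterin, a secreted chaperone that blocks pore assembly and is abundant in astrocytes. C1qa followed at 50.9 ± 11.5 FPKM, Vtn, which encodes vitronectin, another inhibitor of the pore, at 35.7 ± 4.77, C1qb at 22.2 ± 6.65, C1qc at 13.1 ± 3.67 and C4b at 8.66 ± 6.37 FPKM. The ranges of C1qa (40.5 to 78.7 FPKM) and Vtn (30.95 to 46.3 FPKM) overlapped over the libraries. So did those of C1qb (14.2 to 37.8 FPKM) and C1qc (8.91 to 21.8 FPKM). Within each single library, however, C1qa was above Vtn and C1qb was above C1qc. Every other member averaged under 8 FPKM.

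**Figure D1:**
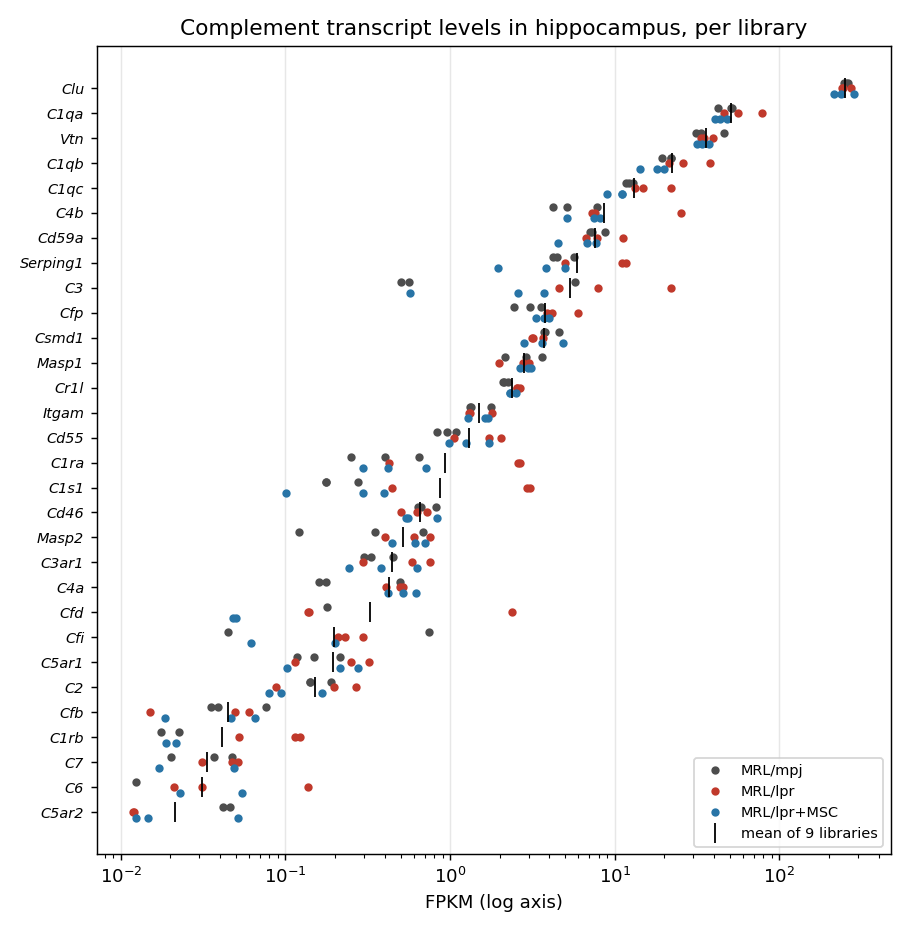
FPKM on a log axis for 30 of the 31 members (C1s2 averaged 0.0139 FPKM and is not drawn), ordered by the mean of all 9 libraries (black ticks). Points are single libraries coloured by group, values under 0.005 FPKM are not drawn, and C3, C1ra and C1s1 spread over more than 10-fold while Clu and Cr1l stay tight.

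Detection differed between members of the cascade. In total, 24 of the 31 members had a count in every library and 21 averaged 1 CPM or more. C6 and C7, which begin the membrane pore, had 29 and 19 counts over all 9 libraries together. Of the later components outside the 31, C8g had 415 counts and Hc, which encodes C5, had 234, both with counts in every library. Cfb, the protease of the alternative pathway convertase, had 26 counts, and C5ar2, the second C5a receptor, had 14. Cfd, the protease adipsin that activates factor B, had 74 counts, 63 of them in MRL/lpr replicate 1. C1rb and C1s2, the second copies of the C1r and C1s genes, had 22 and 8 counts. These 7 members did not pass the filter on low counts when MRL/lpr was set against the controls, and were left out of the main test. With no filter, all 31 members were tested in that comparison and 0 were called. Counts this low limit which differences could be seen.

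Several members lie in clusters of duplicated genes, which limits how reads could be assigned. C1qb, C1qc and C1qa sit side by side on chromosome 4 (GRCm38 chr4:136880129-136898803, minus strand), and C1qa and C1qb share 0 windows of 100 bases. C1ra, C1s1, C1rb and C1s2 occupy chr6:124512405-124636085, and 34.5% of the 100-base windows of the longest C1ra transcript occur unchanged in a C1rb transcript, while 7.90% of those of C1s1 occur in C1s2. C4b, C4a, Cfb and C2 lie in the major histocompatibility complex, at chr17:34728380-34898265, and C4a and C4b share 16.5% of their windows. Counts of these pairs are therefore uncertain as to which copy they came from. C4a had 2.25% to 9.03% as many counts as C4b.

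Among members averaging over 1 CPM, levels differed most among libraries for C3, C1ra and C1s1, so the sequences just upstream of these genes are shown. RefSeq promoter windows (GRCm38.p6, 250 bases before to 50 after the start site) were found for 21 of the 31 genes. They were searched on both strands for the interferon-stimulated response element, which interferon regulatory factors bind, for TTCNNNGAA, bound by STAT factors, for TGANTCA, bound by AP-1, and for TTNNGCAA, part of the site that C/EBP factors bind. Capitals mark every match, and the sequences read 5′ to 3′ on the strand of the gene.
C3, chr17:57228087-57228386, minus strand: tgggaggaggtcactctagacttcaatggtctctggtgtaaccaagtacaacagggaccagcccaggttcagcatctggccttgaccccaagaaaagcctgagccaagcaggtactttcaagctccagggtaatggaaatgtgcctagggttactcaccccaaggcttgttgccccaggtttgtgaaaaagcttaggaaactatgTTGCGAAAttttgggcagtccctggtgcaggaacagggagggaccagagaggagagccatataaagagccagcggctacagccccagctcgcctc
C1ra, chr6:124512371-124512670, plus strand: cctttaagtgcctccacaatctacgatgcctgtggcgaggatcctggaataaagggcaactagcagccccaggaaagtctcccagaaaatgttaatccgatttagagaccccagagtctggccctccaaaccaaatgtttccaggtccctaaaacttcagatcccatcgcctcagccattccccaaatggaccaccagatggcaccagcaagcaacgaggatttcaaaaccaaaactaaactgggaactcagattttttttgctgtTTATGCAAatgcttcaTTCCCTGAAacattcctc
C1s1, chr6:124542310-124542609, minus strand: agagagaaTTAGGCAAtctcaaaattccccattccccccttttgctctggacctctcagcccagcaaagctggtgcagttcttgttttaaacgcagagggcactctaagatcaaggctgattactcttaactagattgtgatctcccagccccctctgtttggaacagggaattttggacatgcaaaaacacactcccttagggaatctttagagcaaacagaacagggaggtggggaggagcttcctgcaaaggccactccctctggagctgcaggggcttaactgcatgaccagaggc
TTNNGCAA occurs in these 3 windows, with TTGCGAAA on the opposite strand of C3, TTATGCAA in C1ra and TTAGGCAA in C1s1. In the table, 10.8% of all 32851 promoter windows hold it, and it was also found for C1rb and C5ar2. TTNNGCAA begins at base 9 of the C1s1 window and lies outside the second window listed for C1s1. TTCNNNGAA, held by 8.30% of all windows, occurs as TTCCCTGAA in C1ra and was also found for C1rb, C7, Masp2 and Vtn. The interferon-stimulated response element, held by 3.44% of all windows, was matched for Cd46, Cd59a and Vtn and in none of the 3 windows shown. TGANTCA, held by 7.81%, was matched for C3ar1 alone. These are matches of letters and no binding was measured.

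In MRL/lpr against MRL/mpj, no complement member passed the test, although several were high in 2 of the 3 MRL/lpr libraries. By limma voom with Benjamini-Hochberg adjustment over all genes tested, 0 of the 24 members tested were called at an adjusted p under 0.05 and a change of at least 1.5-fold, where 5.79% of all 16697 genes were called. At an unadjusted p under 0.05, 6 members passed, C1s1, C3, Cfp, Cd55 and Cr1l with higher and Csmd1 with lower estimates, which is 6 of 24 beside 30.4% of all genes. Every MRL/lpr library was above every MRL/mpj library for 4 members (C1qc, C1s1, Cfp and Cr1l), beside 19.4% of all genes, and below for 1 (Csmd1), beside 18.5%. The median log2 fold change of the 24 tested members was 0.45, beside 0.022 for all genes. Of the 967 genes called, 58.8% were higher in MRL/lpr. Scaling libraries to total counts called 1217 genes, of which 77.7% were higher, and moved the median of all genes to 0.149.

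The C1q chains were highest in MRL/lpr replicate 1. The CPM values of C1qa were 53.1, 44.4 and 53.3 in MRL/mpj and 82.5, 58.8 and 48.1 in MRL/lpr. C1qb stood at 23.9, 23.9 and 20.8 CPM in MRL/mpj and 41.5, 28.5 and 23.1 CPM in MRL/lpr. C1qc stood at 24.8, 22.8 and 23.5 CPM in MRL/mpj and 42.5, 29.0 and 25.5 CPM in MRL/lpr. MRL/lpr replicate 3 lay within or just above the control range for all 3 chains, so the groups overlapped for C1qa and C1qb and narrowly did not for C1qc. The log2 fold changes were 0.31 ± 0.20 (SE, n = 3 per group, adjusted p = 0.347 by limma), 0.41 ± 0.23 (adjusted p = 0.265) and 0.43 ± 0.20 (adjusted p = 0.200). The 95% interval of C1qc ran from -0.05 to 0.92.

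No microglial marker passed the test beside C1q. The 10 markers summed to 352 to 380 CPM in MRL/mpj and 295 to 380 CPM in MRL/lpr, and 0 of the 10 were called. Cx3cr1 and P2ry12 were lower in every MRL/lpr library (37.3 to 47.1 and 33.9 to 40.6 CPM) than in every MRL/mpj library (55.7 to 57.8 and 53.2 to 56.8 CPM). These were 2 of the 10 markers, beside 18.5% of all genes tested, and 0 of the 10 were higher in every MRL/lpr library. The summed CPM of the 3 C1q chains was 0.259 to 0.275 times that of the microglial markers in MRL/mpj, 0.328 to 0.439 times in MRL/lpr and 0.240 to 0.293 times in MRL/lpr+MSC. The ratio was thus higher in each MRL/lpr library than in any other library. In MRL/lpr replicate 3 the C1q sum of 96.7 CPM lay inside the control range of 91.1 to 101.8 CPM, while the microglial sum of 295 CPM lay below the 352 to 380 CPM of the controls. The ratio carries no test.

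C1ra and C1s1, which encode the proteases of the C1 complex, were high in MRL/lpr replicates 1 and 2 and near control levels in replicate 3. C1s1 measured 0.550, 0.860 and 0.545 CPM in MRL/mpj and 9.203, 9.61 and 1.40 CPM in MRL/lpr. C1ra measured 0.7495, 1.204 and 1.91 CPM in MRL/mpj and 7.80, 8.06 and 1.27 CPM in MRL/lpr. Both MRL/lpr replicates 1 and 2 exceeded every control for both genes, while the third exceeded every control only for C1s1. The log2 fold changes were 2.95 ± 1.21 for C1s1 (limma adjusted p = 0.158) and 1.88 ± 0.98 for C1ra (limma adjusted p = 0.247). C1rb, the copy of C1ra, did not pass the filter on low counts and shares 42.7% of its windows with C1ra. It had at most 8 counts in any library, with 0, 1 and 1 in MRL/mpj, 8, 7 and 3 in MRL/lpr and 1, 1 and 0 in MRL/lpr+MSC.

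C3, the central protein that all pathways cut, spread more inside the control group than any other tested member with counts in all 3 controls. It measured 2.60, 2.92 and 29.1 CPM in MRL/mpj and 113, 41.4 and 23.7 CPM in MRL/lpr. The highest control was 11.2 times the lowest, where the median of that ratio over all tested genes of at least 1 CPM was 1.16, and it exceeded the lowest MRL/lpr library. The log2 fold change was 3.10 ± 1.13 (limma adjusted p = 0.125). The library with the high control value, MRL/mpj replicate 3, is also the one with 398 CPM of hepatocyte markers. In MRL/lpr replicate 2, where those markers summed to 3.36 CPM, C3 was 41.4 CPM. That library also had the highest sums of choroid plexus markers (9743 CPM) and fibroblast markers (840 CPM). The part of these tissues in the C3 values was not tested. Without MRL/mpj replicate 3 the log2 fold change was 4.14 (adjusted p = 0.202), and without both MRL/mpj replicate 3 and MRL/lpr replicate 1, an alternative chosen after seeing the data, 0 members and 7 of 15792 genes were called.

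C4b, the main C4 gene, stood apart in 1 library. It measured 29.3, 44.6 and 23.8 CPM in MRL/mpj and 145, 42.2 and 43.1 CPM in MRL/lpr, with MRL/lpr replicates 2 and 3 inside the control range. The log2 fold change of 1.02 ± 0.55 (limma adjusted p = 0.259) thus rested on MRL/lpr replicate 1. C4a, the sex-limited copy, measured 0.999, 3.10 and 1.09 CPM in MRL/mpj and 3.25, 2.54 and 3.09 CPM in MRL/lpr (0.92 ± 0.41 on the log2 scale, adjusted p = 0.180). C2, which C1s cuts to complete the convertase, stayed between 0.310 and 1.05 CPM over all 9 libraries.

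**Figure D2:**
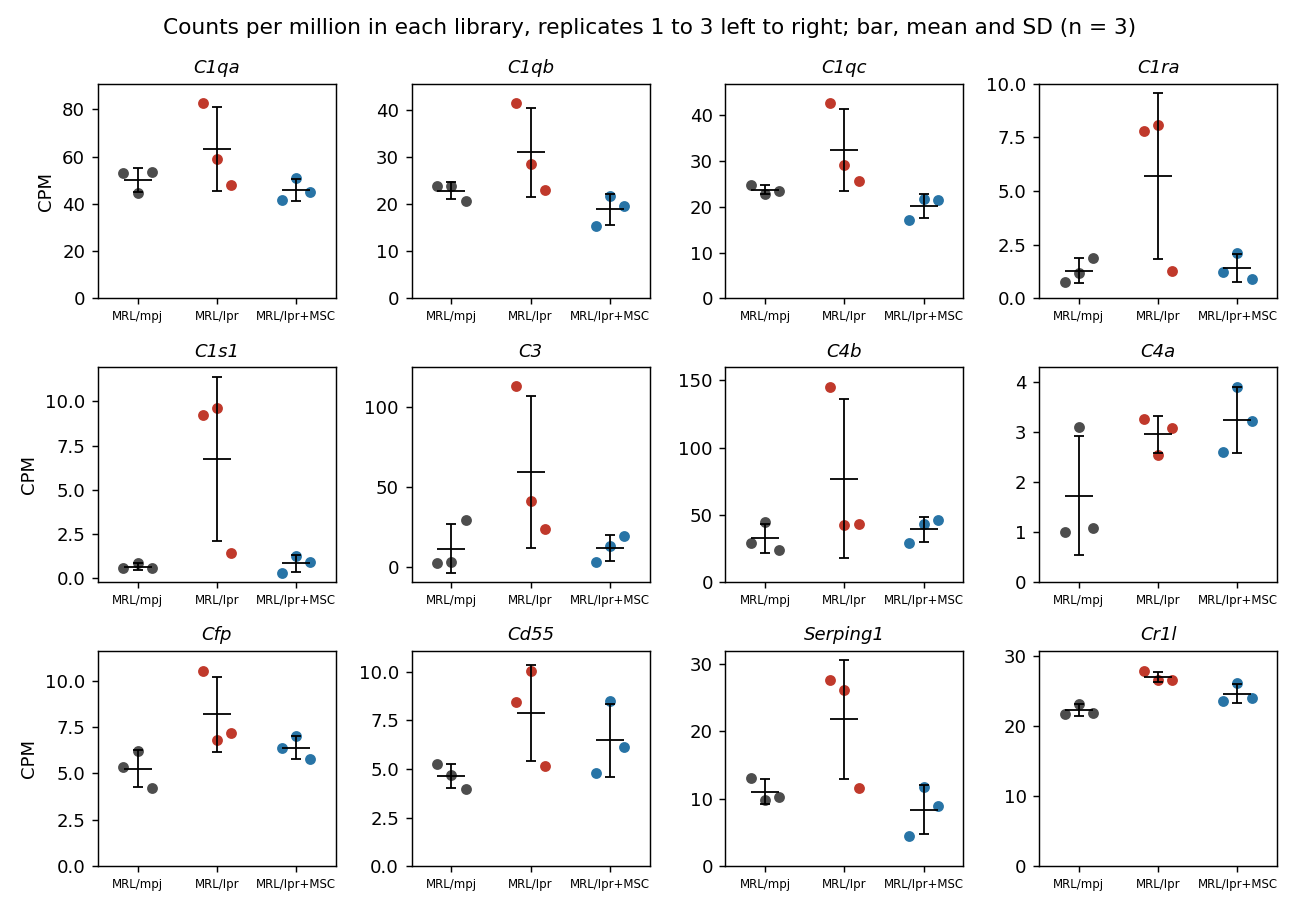
CPM of 12 members in each of the 9 libraries, with points for replicates 1 to 3 from left to right and bars for the mean and SD (n = 3). C1ra, C1s1 and Serping1 are high in MRL/lpr replicates 1 and 2 and not in replicate 3, and C4b is high in MRL/lpr replicate 1.

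Among regulators, Serping1 shared the pattern of C1ra and C1s1. Serping1 encodes the C1 inhibitor, which blocks exactly these proteases, and measured 13.1, 9.81 and 10.2 CPM in MRL/mpj and 27.6, 26.1 and 11.7 CPM in MRL/lpr (0.92 ± 0.40, limma adjusted p = 0.176). MRL/lpr replicate 3 again fell inside the control range. Cd55, decay-accelerating factor, measured 5.25, 4.69 and 3.98 CPM in MRL/mpj and 8.43, 10.04 and 5.16 CPM in MRL/lpr (0.72 ± 0.29, adjusted p = 0.150).

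Cr1l, the rodent membrane regulator Crry, had the lowest adjusted p of any member and a small spread. It measured 21.7, 23.2 and 21.9 CPM in MRL/mpj and 27.9, 26.6 and 26.6 CPM in MRL/lpr, and the groups did not overlap. The log2 fold change was 0.28 ± 0.08, or 1.22-fold (limma adjusted p = 0.0622), with a 95% interval of 0.10 to 0.46, which lies under a 1.5-fold change. Csmd1, a large membrane protein of neurons that inhibits complement, measured 71.9, 87.4 and 70.5 CPM in MRL/mpj and 60.5, 70.4 and 61.1 CPM in MRL/lpr (-0.26 ± 0.11, adjusted p = 0.162). The groups for Csmd1 did not overlap, with a narrow gap. The summed neuron markers were also lower in MRL/lpr (4037 to 5358 CPM) than in MRL/mpj (6025 to 7063 CPM), and their part in the Csmd1 value was not tested.

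Clu, Vtn, Cd59a and Cd46 gave estimates near 0. Clu measured 847 to 901 CPM in MRL/mpj and 823 to 942 CPM in MRL/lpr, and its 95% interval ran from -0.18 to 0.18 on the log2 scale, while that of Vtn ran from -0.39 to 0.37. Cd59a, which guards cells against the pore, and Cd46, a cofactor for C3b cleavage, had log2 fold changes of 0.15 ± 0.21 and -0.17 ± 0.20. The estimates of Clu, Vtn and Masp1 turned positive when libraries were scaled to total counts. Cfi, the protease that inactivates C3b, was at 0.0999, 0 and 1.63 CPM in MRL/mpj and 0.665, 0.517 and 0.465 CPM in MRL/lpr, and its highest value was again that of MRL/mpj replicate 3. The log2 fold change of Cfi was 1.91 ± 1.26 (limma adjusted p = 0.349), with a 95% interval of -1.12 to 4.95, and it ran from 0.36 to 3.46 when libraries were left out.

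Properdin and the receptors gave smaller differences. Cfp, the X-linked gene of properdin, which stabilises the alternative convertase, measured 5.35, 6.19 and 4.19 CPM in MRL/mpj and 10.53, 6.81 and 7.19 CPM in MRL/lpr (0.64 ± 0.24, limma adjusted p = 0.132). The groups did not overlap. Of the receptors, C3ar1 for C3a, C5ar1 for C5a and Itgam had log2 fold changes of 0.53 ± 0.41, 0.46 ± 0.49 and 0.04 ± 0.20. The lectin proteases Masp1 and Masp2 had -0.10 ± 0.24 and 0.85 ± 0.58, with MRL/mpj replicate 1 at 0.400 CPM of Masp2 against 1.14 to 2.52 CPM elsewhere.

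Whether members were called depended on the setting. Without MRL/lpr replicate 3, 4 members passed, all with higher levels in MRL/lpr: C1s1 (log2 fold change 3.82, adjusted p = 0.00179), Serping1 (1.31, adjusted p = 0.00513), C1ra (2.72, adjusted p = 0.00633) and Cd55 (0.99, adjusted p = 0.0205). Over all genes 1204 of 16232 were called in that setting. With library quality weights 5 members passed (C1s1, C3, Cfp, Cd55 and Serping1), beside 2065 of 16697 genes. No member was called when any other single library was left out.

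Markers of immune cells were, like C1s1 and C1ra, lowest in replicate 3 among the MRL/lpr libraries. All 6 T-cell markers and all 5 B-cell markers were higher in every MRL/lpr library than in every MRL/mpj library, beside 19.4% of all genes tested. Of these, 4 of the 6 T-cell markers tested and 2 of the 3 B-cell markers tested were called higher, beside 5.79% of all genes called in either direction. The T-cell markers summed to 16.3, 10.6 and 4.36 CPM in MRL/lpr and 0.545 to 0.949 CPM in MRL/mpj, and the B-cell markers, mostly Jchain, to 115, 40.6 and 21.2 CPM against 0.731 to 1.95 CPM. The 7 monocyte and neutrophil markers summed to 17.4, 10.8 and 3.43 CPM against 1.91 to 6.39 CPM, with Ly6g at 0 in every library. Ccr2 and Ly6c2 led this list in MRL/lpr replicate 1, at 5.74 and 8.40 CPM. S100a8 and S100a9 led it in MRL/lpr+MSC replicate 2, at 6.505 and 8.55 CPM of a sum of 18.03 CPM. The 15 interferon-induced genes summed to 123, 96.8 and 53.2 CPM against 32.0 to 34.6 CPM. Of the 15, 14 were higher in every MRL/lpr library than in every MRL/mpj library, beside 19.4% of all genes. Of the 14 tested, 7 were called higher, beside 5.79% called in either direction. Of the 7 monocyte and neutrophil markers, 2 were higher in every MRL/lpr library, and 0 of the 5 tested were called. The fibroblast markers, led by Igf2, summed to 340, 840 and 198 CPM against 166 to 361 CPM, with the choroid plexus markers at 1086, 9743 and 109 CPM against 168 to 712 CPM. The part of these cells in the complement values was not tested.

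**Figure D3:**
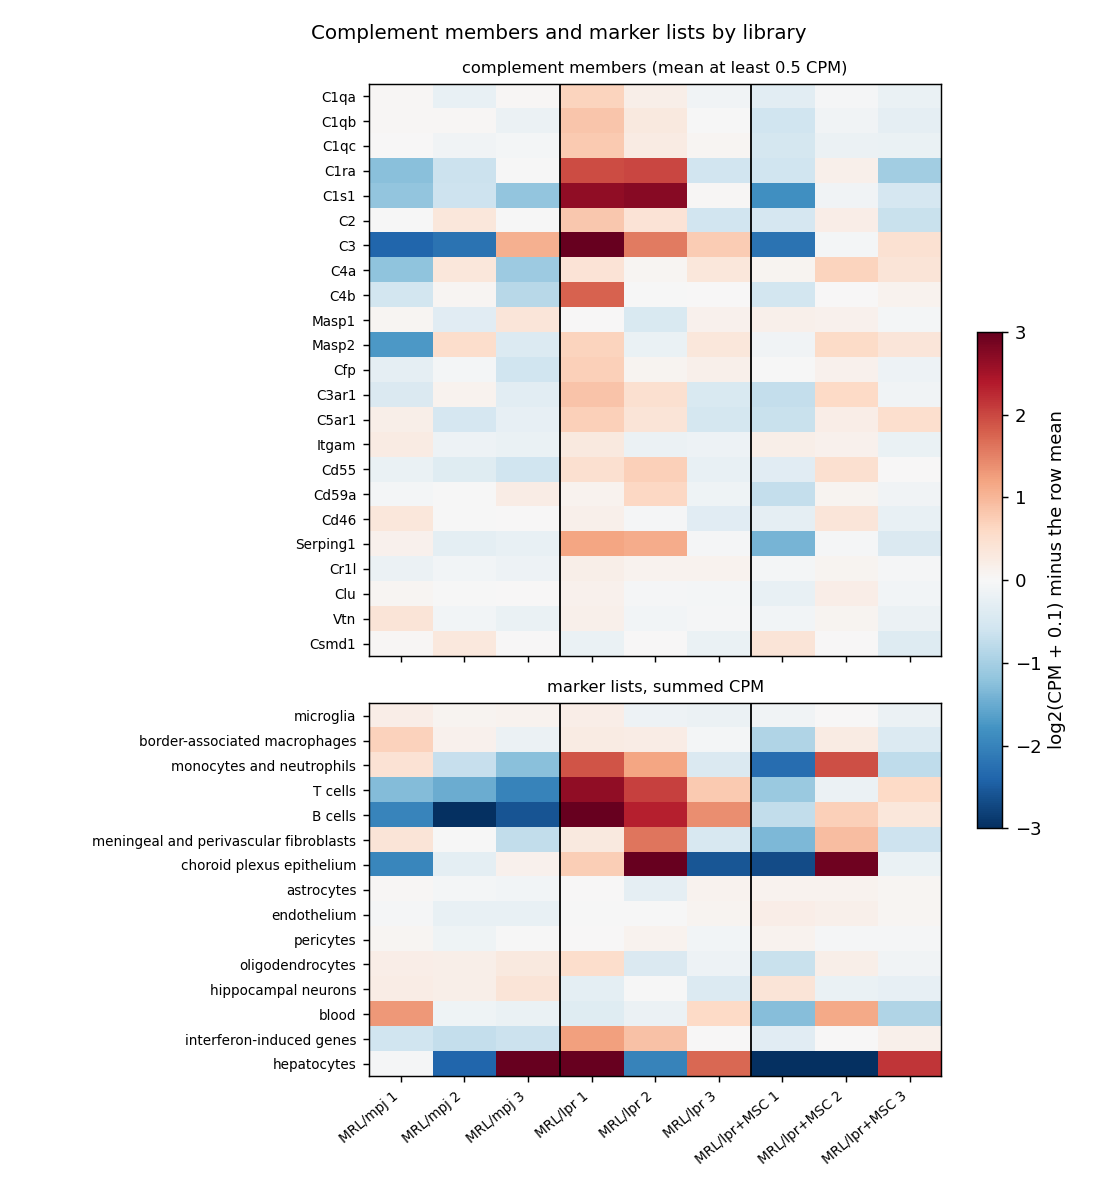
Rows are complement members averaging at least 0.5 CPM (upper part) and the summed CPM of each marker list (lower part), columns the 9 libraries, and the colour is log2(CPM + 0.1) minus the row mean, limited to 3 in either direction. C1ra, C1s1, C3 and Serping1 have their highest values in MRL/lpr replicates 1 and 2, where T-cell and B-cell markers are also highest. Hepatocyte markers are high in MRL/mpj replicate 3 and MRL/lpr replicate 1.

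In MRL/lpr+MSC against MRL/mpj, which uses the same 3 controls, no complement member passed the test. Cfi did not pass the filter on low counts here. By limma voom 0 of 23 tested members were called, beside 3.43% of 16196 genes, and 1 (C4a) had an unadjusted p under 0.05, beside 22.9%. Every MRL/lpr+MSC library was above every control for 1 member (Cr1l), beside 15.2% of genes, and below for 1 (C1qc), beside 14.4%. The median log2 fold change of the tested members was 0.07, beside 0.009 for all genes.

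C1qc measured 17.1, 21.75 and 21.4 CPM in MRL/lpr+MSC (-0.23 ± 0.11, limma adjusted p = 0.272), C1qa 41.8, 50.8 and 45.1 CPM and C1qb 15.4, 21.8 and 19.6 CPM. The C1q estimates were thus on the opposite side of 0 from those of MRL/lpr, with intervals that included 0 in both. C1s1 measured 0.311, 1.25 and 0.929 CPM and C1ra 1.25, 2.14 and 0.885 CPM, so both genes overlapped the controls. C3 measured 2.91, 13.4 and 19.2 CPM (0.74 ± 1.09, adjusted p = 0.734), inside the control range of 2.60 to 29.1 CPM. C4b measured 28.9, 43.2 and 46.1 CPM and C4a 2.595, 3.90 and 3.23 CPM (1.04 ± 0.42 for C4a, adjusted p = 0.198). For Masp2 the estimate was 0.87 ± 0.56 on the log2 scale (limma adjusted p = 0.401). Beside these C3 values, the hepatocyte markers summed to 0.882, 0.976 and 60.9 CPM and the choroid plexus markers to 100.5, 4899 and 568 CPM, and their part was not tested.

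**Figure D4:**
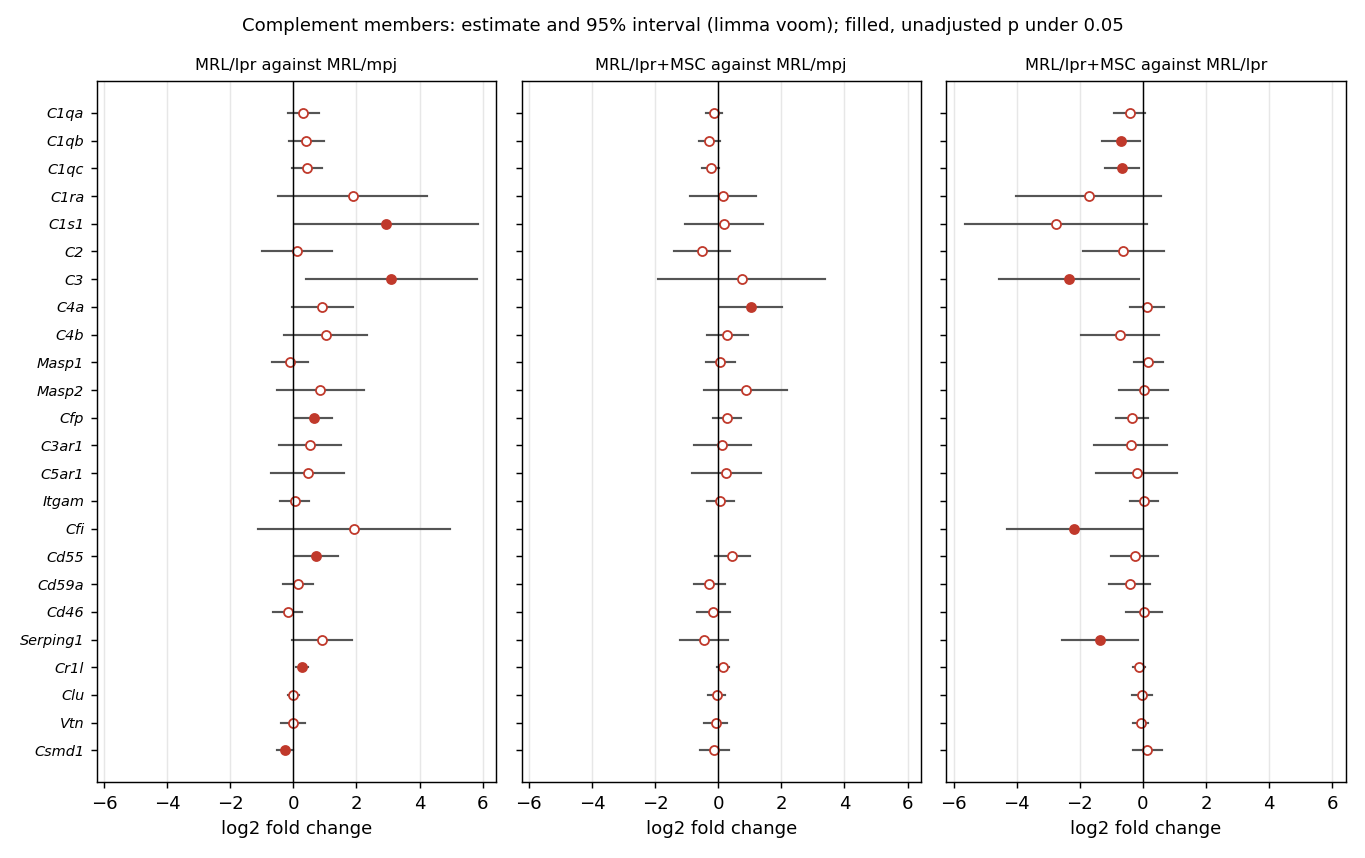
Log2 fold change of each tested member in the 3 comparisons (points, with 95% intervals as lines) on a shared axis, with filled points for an unadjusted p under 0.05. The widest intervals belong to C1s1, C1ra, C3 and Cfi, and no point passed the adjusted threshold.

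In MRL/lpr+MSC against MRL/lpr, the question was whether complement transcripts differ between treated and untreated mice, and no gene in the matrix was called. By limma voom 0 of 24 members passed, beside 0.00% of 16758 genes. At an unadjusted p under 0.05, 5 members passed (C1qb, C1qc, C3, Cfi and Serping1), all with lower estimates in MRL/lpr+MSC, beside 3.86% of all genes. Every MRL/lpr+MSC library was below every MRL/lpr library for 6 members (C1qb, C1qc, C1s1, C3, Cfi and Cr1l), beside 5.72% of all genes, and above for 0, beside 4.27%. The median log2 difference of the tested members was -0.37, beside -0.004 for all genes.

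The differences in this comparison were -0.69 ± 0.25 for C1qb, -0.66 ± 0.22 for C1qc and -0.42 ± 0.20 for C1qa on the log2 scale. They were -2.77 ± 1.2 for C1s1, -1.72 ± 0.95 for C1ra, -2.34 ± 0.91 for C3 and -1.37 ± 0.49 for Serping1. All 7 had an adjusted p of 0.9215 by limma. Serping1 measured 4.52, 11.7 and 8.94 CPM in MRL/lpr+MSC, so its replicate 2 just exceeded MRL/lpr replicate 3 at 11.7 CPM. Leaving out MRL/lpr replicate 2 together with MRL/lpr+MSC replicate 2, the libraries highest in choroid plexus markers, was chosen after seeing the data and gave 0 called members, with -2.73 for C1s1 and -2.70 for C3. T-cell markers summed to 1.09, 2.18 and 3.81 CPM in MRL/lpr+MSC, and B-cell markers to 4.77 to 13.2 CPM.

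A further 34 genes of the complement system were read beside the members. In MRL/lpr against MRL/mpj 1 of 21 tested passed, beside 5.79% of all genes. It was Cd59b, the second mouse copy of the pore inhibitor CD59, whose longest transcript shares 0.717% of its 100-base windows with Cd59a. Cd59b measured 0.400, 0.301 and 0.381 CPM in MRL/mpj and 1.33, 1.51 and 1.14 CPM in MRL/lpr (1.82 ± 0.30, limma adjusted p = 0.0192), and the groups did not overlap. It stood at 0.519, 0.929 and 1.15 CPM in MRL/lpr+MSC, where the difference from MRL/mpj was 1.18 ± 0.40 (adjusted p = 0.143). No gene of this list was called without MRL/mpj replicate 1, 2 or 3 or MRL/lpr replicate 1, each of which leaves a group of 2. In MRL/lpr+MSC against MRL/mpj, 0 of 18 were called by limma, beside 3.43% of all genes. At an unadjusted p under 0.05 there were 3, beside 22.9%. Against MRL/lpr, 0 of 21 were called, beside 0.00% of all genes, with 1 at an unadjusted p under 0.05, beside 3.86%.

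The 5 most abundant of these genes were Sez6l, Sez6l2, Sez6, Susd4 and Csmd2, membrane proteins of neurons with the short consensus repeats of complement regulators. Their mean CPM in MRL/mpj and MRL/lpr were 363 and 331 for Sez6l, 311 and 287 for Sez6l2, 188 and 137 for Sez6, 161 and 145 for Susd4 and 50.6 and 59.4 for Csmd2, and the largest change was -0.49 ± 0.21 for Sez6 (limma adjusted p = 0.171), a neuronal gene for which the part of the lower neuron markers in MRL/lpr was likewise not tested. Components made by liver did not share 1 order of libraries. Mbl2, mannose-binding lectin, measured 2.51 CPM in MRL/mpj replicate 3 and 0 to 0.455 CPM in the other 8 libraries, and Cpn2 1.42 CPM against 0 to 0.354 CPM. C8a and C9 were highest in MRL/lpr+MSC replicate 3, at 1.81 and 0.442 CPM, and Hc and Cpn1 in MRL/lpr replicate 1, at 2.87 and 1.75 CPM.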

How the data were processed

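RNA-seq of 9 hippocampus libraries was analysed. Per the labels, poly-A libraries were made with the NEBNext Ultra kit. The submitters' processing notes name TopHat2 and GRCm38, whereas the study's methods name STAR and HTSeq. The strand setting of the counting is not given in the sources used here. The deposited matrix holds gene counts that the authors did not normalize (registered as other because its columns are parted by a vertical bar), and the authors deposited FPKM tables per sample, which matched their own count columns best in 9 of 9 samples. The authors' tests used DESeq2 after voom.

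Here, genes were kept with the equivalent of 10 counts in at least 3 libraries and 15 in all, scaled by TMM (30% and 5% trimming) and tested with limma 3.58.1 (voom, robust empirical Bayes) in R 4.3.3, each comparison on its own 6 libraries, with Benjamini-Hochberg adjustment over all genes tested. A call needed an adjusted p under 0.05 and a 1.5-fold change. Levels are TMM-scaled counts per 1000000 over 9 libraries. All members are named, and of the other complement genes those called and the 5 most abundant. Mbl2, Cpn2, C8a, C8g, C9, Hc and Cpn1 were named after their values were seen. The members and lists were chosen with earlier results of these data known. The fit was tested on simulated data. Depth was 19475804 to 26912031 counts, and limits from counts cover counting error only.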

Additional observations from a re-analysis of the deposited data

How the results depend on the processing

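No member was called in MRL/lpr against MRL/mpj by limma, whereas 5 were called with library quality weights, 2 (C1s1 and Serping1, adjusted p = 0.0233 and 0.0499) with the replicate block, and 0 to 4 without 1 replicate. Whether equal replicate numbers pair the libraries is not settled. Deviations of same-numbered libraries correlated between -0.212 and 0.359 over the 3 comparisons. In each comparison, replicates 2 and 3 of the first group named correlated best with the same number in the second group. Replicate 1 did so in none, and MRL/lpr replicate 1 correlated best with MRL/mpj replicate 3. Over all genes the block moved the calls from 967 to 1333 in MRL/lpr against MRL/mpj and from 556 to 280 in MRL/lpr+MSC against MRL/mpj. The first count was 2065 with quality weights, 104 in a test against a 1.5-fold change and 135 to 1483 without 1 replicate, and the other 1177, 100 and 158 to 1346. Members called stayed at 0 in the other comparisons. Of the other complement genes, 1 was called in MRL/lpr against MRL/mpj, 0 with the stricter filter or a test against a 1.5-fold change, 2 with quality weights, and 0 to 2 without 1 replicate or the added pair. In MRL/lpr+MSC against MRL/mpj, 1 was called with quality weights and 0 to 1 without 1 replicate. Tests with edgeR and DESeq2 were planned and not run, since the matrix is not registered as counts. Where a group was left with 2 libraries, limma pooled the spread. Of 1110 alternative values of members, 1035 kept direction and call, 11 became called and 64 changed sign, all of them at 0.37 or less in size. The cause was not tested.

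The log2 fold changes that changed sign in MRL/lpr against MRL/mpj were Masp1 (0.02), Clu (0.13) and Vtn (0.12) with total counts, Clu (0.01) and Vtn (0.0) with no filter, Clu (0.01) with the stricter filter, and Clu (0.04) and Vtn (0.03) with quality weights. Without 1 or a pair of libraries they ran from -0.29 to 0.57 for C2, -0.31 to 0.07 for Masp1, -0.19 to 0.18 for Itgam, -0.04 to 0.31 for Cd59a, -0.06 to 0.04 for Clu and -0.19 to 0.17 for Vtn. In MRL/lpr+MSC against MRL/mpj, Clu was 0.02 with total counts and 0.01 with quality weights, and the ranges were -0.2 to 0.76 for C1ra, -0.21 to 0.73 for C1s1, -0.04 to 0.53 for C4b, -0.16 to 0.28 for Masp1, -0.23 to 0.45 for C3ar1, -0.02 to 0.21 for Itgam, -0.18 to 0.06 for Clu, -0.2 to 0.09 for Vtn and -0.31 to 0.05 for Csmd1. In MRL/lpr+MSC against MRL/lpr, Masp2 (-0.04), Itgam (-0.02) and Cd46 (-0.04) changed sign with total counts, and Masp2 (0.0) and Itgam (-0.11) with quality weights. The ranges there were -0.12 to 0.25 for C4a, -0.02 to 0.28 for Masp1, -0.37 to 0.24 for Masp2, -0.59 to 0.17 for C5ar1, -0.1 to 0.2 for Itgam, -0.19 to 0.16 for Cd46, -0.19 to 0.05 for Clu, -0.19 to 0.0 for Vtn and -0.07 to 0.33 for Csmd1.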
